A study of Mus musculus with 19 samples.

Results

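Homeobox and paired-box genes encode transcription factors that bind DNA through a homeodomain, a paired domain or both, and they set regional identity in the embryo. Most are silent in embryonic stem cells (ESCs), where Polycomb repressive complex 2 places trimethylation of histone H3 lysine 27 (H3K27me3) over CpG-rich promoters and often over the whole gene. Dimethylation and trimethylation of H3 lysine 9 (H3K9me2 and H3K9me3) are other repressive marks, found mainly outside CpG islands and over transposable elements. DNMT1 is the maintenance DNA methyltransferase, which copies CpG methylation to the new strand after replication.

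The 52 genes described here are homeobox and Pax genes outside the Hox clusters, taken from a fixed list of names out of 23640 annotated protein-coding and lincRNA genes. They comprise 8 Pax genes, 9 Lhx and Isl genes, 3 genes of the sine oculis-related family (*Six2*, *Six3* and *Six6*), 7 Nkx genes, 6 Dlx genes, 6 Irx genes and 13 genes of other families (*Otx1*, *Gsc*, *Emx1*, *Emx2*, *En1*, *En2*, *Gbx2*, *Msx1*, *Msx2*, *Pitx1*, *Pitx3*, *Barhl1* and *Barhl2*). The value of a gene was taken over its 2 kb tiles from 2 kb upstream of the annotated start to the end on the NCBIM37 build. All 52 were matched, all 52 passed the filter of a mean of 10 reads over the ChIP libraries, and no tile was shared by any pair of them. Together they covered 607 tiles, with 6 to 184 kb per gene.

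Chromatin immunoprecipitation followed by sequencing (ChIP-seq) of the 3 marks was done in mouse ESCs. Control cells, given the genotype Wildtype in the labels, were compared with cells given the genotype Dnmt1 KO (conditional knockout, cKO) at day 4 and day 8. The labels name E14 as the background strain of all libraries, whereas the methods of the study describe ESCs with loxP-flanked *Dnmt1* alleles of another strain in which Cre was induced with tamoxifen, and neither source says whether the control cells were tamoxifen-treated or carried the same alleles. The methods name cultures in serum and LIF, with or without feeder cells, and ChIP dishes coated with gelatine. For every mark, day 8 was covered by 2 libraries per genotype and day 4 by 1 per genotype, which with the input of control cells makes 19 libraries. No source says that the day 8 libraries of a group came from separate cultures, so SDs and p-values measure the spread between libraries only, which may be technical. The labels also give each of the 4 day 8 H3K27me3 libraries an antibody catalogue number, which differs between cKO and control within both pairs and goes up by 1 from library to library, whereas the methods list a single H3K27me3 antibody. An antibody difference, if real, and the genotype cannot be told apart there.

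The ChIP libraries held 14627174 to 26181489 reads in tiles, apart from H3K9me3 in cKO at day 8, replicate 1, which held 5669098. Values are log2 observed/expected reads, where 0 is the mean of the genome. As a check of the labels, the tile of *Dnmt1* with the lowest ratio, chosen after its values were seen (chromosome 9, 20744001 to 20746000), held 1 read over the 6 day 8 cKO libraries and 49 over the 6 controls, a depth-corrected ratio of 0.0216 (exact binomial 95% interval 0.000535 to 0.126, counting error only). The median ratio of the other tiles of the gene was 1.18. At day 4 the same tile held 9 cKO reads and 23 control reads.

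In control ESCs the 52 genes lay under strong H3K27me3, and their medians were below the genome mean in both H3K9 marks. Members above that mean numbered 6 at day 4 and 4 and 7 at day 8 for H3K9me2. For H3K9me3 they numbered 3 at day 4 and 0 in both day 8 controls. The median H3K27me3 level over the members was 3.80 at day 4 and 4.25 and 3.82 at day 8, a mean of 3.96 ± 0.26 (log2, SD, n = 3 libraries) or 15.5-fold the genome mean. Over all 23007 gene regions tested the same medians were between -0.14 and -0.12. H3K9me2 had a median level of -1.77 ± 0.06 (log2, SD, n = 3 libraries), 0.293-fold the genome mean, and H3K9me3 one of -0.88 ± 0.13 (log2, SD, n = 3 libraries), 0.545-fold. The medians over all gene regions tested were also below the genome mean, at -0.47 for H3K9me2 and -0.49 for H3K9me3. With the trend with GC content removed, levels are relative to the median of gene regions of like GC content and not to the genome mean. On that scale the member medians were -0.77 for H3K9me2 and -0.14 for H3K9me3. The input library gave a median of -0.07 over the same regions, close to the genome mean. The member tiles made up 0.0457% of all tiles and took 0.434% to 0.569% of the reads in the 3 H3K27me3 control libraries, against 0.0446% in the input.

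**Figure D1:**
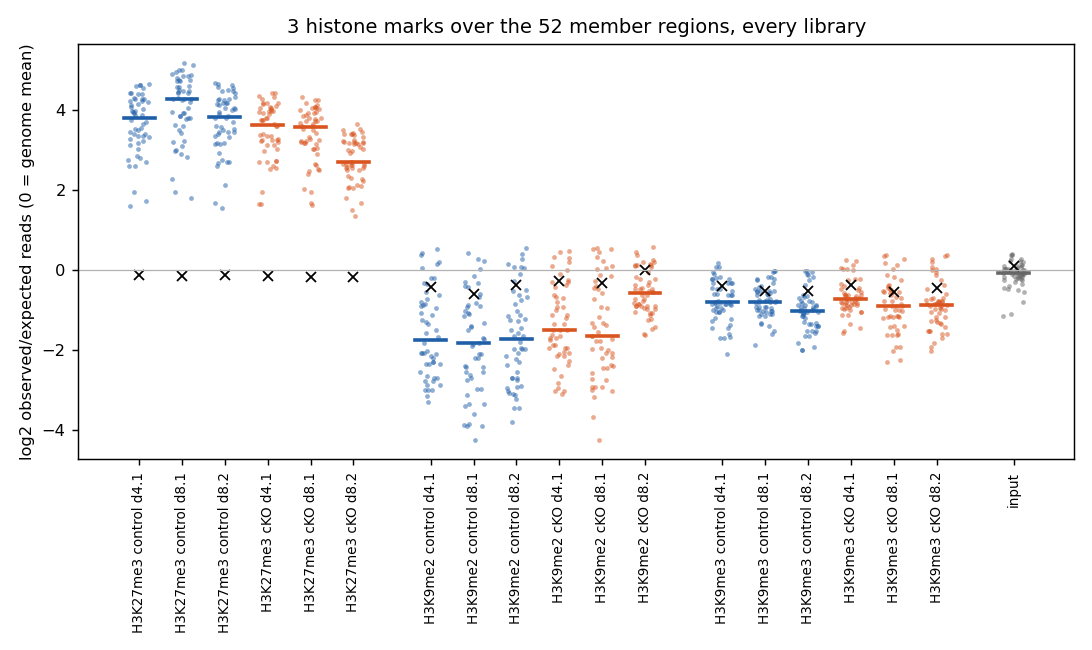
Level of each mark over the 52 members in all 19 libraries, as log2 observed/expected reads on the y axis (1 dot per member, horizontal bar the median over members, cross the median over all gene regions tested, blue control, orange cKO, grey input). H3K27me3 medians lie between 2.69 and 4.25, H3K9me2 medians between -1.84 and -0.59 and H3K9me3 medians between -1.02 and -0.73.

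Every member had more H3K27me3 than H3K9me2 or H3K9me3 in control cells. With 3 control libraries per mark, limma called all 52 members higher in H3K27me3 than in H3K9me2 (Benjamini-Hochberg adjusted p-value threshold 0.05), beside 44.1% of all gene regions tested in that direction, and all 52 higher than in H3K9me3, beside 44.6%. The median difference over the members was 6.14 on the log2 scale against H3K9me2 and 4.85 against H3K9me3, while the medians over all gene regions were 0.25 and 0.19. Antibodies differ in how well they enrich, so these are differences of enrichment over the genome mean and not of the amount of each mark. By mean control H3K27me3 level, 49 of the 52 members were among the 5% highest of all gene regions tested and 25 were among the 1% highest.

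The level varied between families, and the Pax genes, regulators of brain, eye, kidney, muscle and B cell development, stood lowest when the whole gene was counted. The median control level was 6.52-fold the genome mean over the Pax genes, 9.86-fold over the LIM-homeodomain genes Lhx and Isl, 12.9-fold over the sine oculis-related genes, 16.3-fold over Irx, 18.9-fold over Dlx and 21.3-fold over Nkx. Pax regions were long, with a median of 72 kb against 8 to 28 kb in the other families, and much of a long gene lay outside the marked part. Over the tiles within 2 kb of the start alone, the Pax median was 21.5-fold the genome mean, close to the 22.1-fold of Lhx and Isl and the 22.3-fold of Nkx. The sine oculis-related genes were then lowest at 14.2-fold. The family order by whole gene thus did not hold at the starts.

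The highest level of the 52 was that of *Nkx2-3* (ENSMUSG00000044220, chromosome 19, plus strand), a factor needed for spleen and gut-associated lymphoid tissue. It ranked 27 among the 23007 gene regions. Its log2 level was 4.63 at day 4 and 5.16 and 4.66 at day 8 in control, and 4.33 at day 4 and 4.32 and 3.42 at day 8 in cKO. Both day 8 cKO libraries were thus below both day 8 controls. The lowest level was that of *Pax8* (ENSMUSG00000026976, chromosome 2, minus strand), a regulator of thyroid and kidney development, with 1.58 at day 4 and 1.78 and 1.54 at day 8 in control and 1.64 at day 4 and 1.62 and 1.502 at day 8 in cKO. Here cKO and control overlapped. In other families the highest were *Pax6*, the regulator of eye development, at 12.7-fold the genome mean, *Lhx5*, a forebrain factor, at 27.5-fold, *Six6*, an eye and pituitary factor, at 17.5-fold, *Dlx1*, a forebrain interneuron factor, at 24.0-fold, *Irx3*, an Iroquois factor, at 20.8-fold and *Pitx1*, a hindlimb and pituitary factor, at 26.3-fold. The lowest outside Pax were *Lhx8* at 6.74-fold, *Six3* at 11.3-fold, *Nkx6-2* at 11.2-fold, *Dlx3* at 11.6-fold, *Irx6* at 9.66-fold and *Gbx2* at 8.32-fold.

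The promoters of the members with the highest level, the largest and the smallest day 8 difference are shown to let the CpG content at the start be read beside the mark. Each runs 5′ to 3′ on the strand of the gene from 250 bases before to 50 after the annotated start in the NCBIM37 genome, with CpG sites in capitals. *Nkx2-3* (chr19:43686565-43686864, plus strand) held 15 CpG, and 44.3% of all gene regions tested had as many or more in this window. *Gbx2* (chr1:91829816-91830115, minus strand) held 2, which 88.4% reached. *Pax8* (chr2:24331070-24331369, minus strand) held 7, which 63.4% reached.
Nkx2-3: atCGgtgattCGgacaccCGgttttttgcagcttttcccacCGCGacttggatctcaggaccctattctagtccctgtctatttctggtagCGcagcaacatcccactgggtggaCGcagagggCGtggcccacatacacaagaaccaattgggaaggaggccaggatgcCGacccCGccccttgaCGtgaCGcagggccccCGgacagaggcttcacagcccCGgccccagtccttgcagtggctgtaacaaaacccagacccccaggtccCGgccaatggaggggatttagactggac
Gbx2: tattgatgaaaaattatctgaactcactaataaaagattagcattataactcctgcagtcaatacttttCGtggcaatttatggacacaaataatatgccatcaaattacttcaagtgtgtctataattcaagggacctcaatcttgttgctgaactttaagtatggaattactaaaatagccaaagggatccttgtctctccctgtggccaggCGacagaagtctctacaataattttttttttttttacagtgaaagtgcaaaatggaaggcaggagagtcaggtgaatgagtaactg
Pax8: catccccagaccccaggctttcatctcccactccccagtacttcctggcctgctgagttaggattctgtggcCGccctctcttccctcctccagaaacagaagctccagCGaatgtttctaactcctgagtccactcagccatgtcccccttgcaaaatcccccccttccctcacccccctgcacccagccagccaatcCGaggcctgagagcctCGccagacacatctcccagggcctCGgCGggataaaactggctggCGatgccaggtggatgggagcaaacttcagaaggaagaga
The window of *Gbx2*, which had the largest day 8 difference of the 52, thus held few CpG sites, although its whole region held 46.0 CpG per kb. Each window sits at the outermost annotated start of the gene. Other starts were not examined, so a window need not be the promoter used in ESCs.

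**Figure D2:**
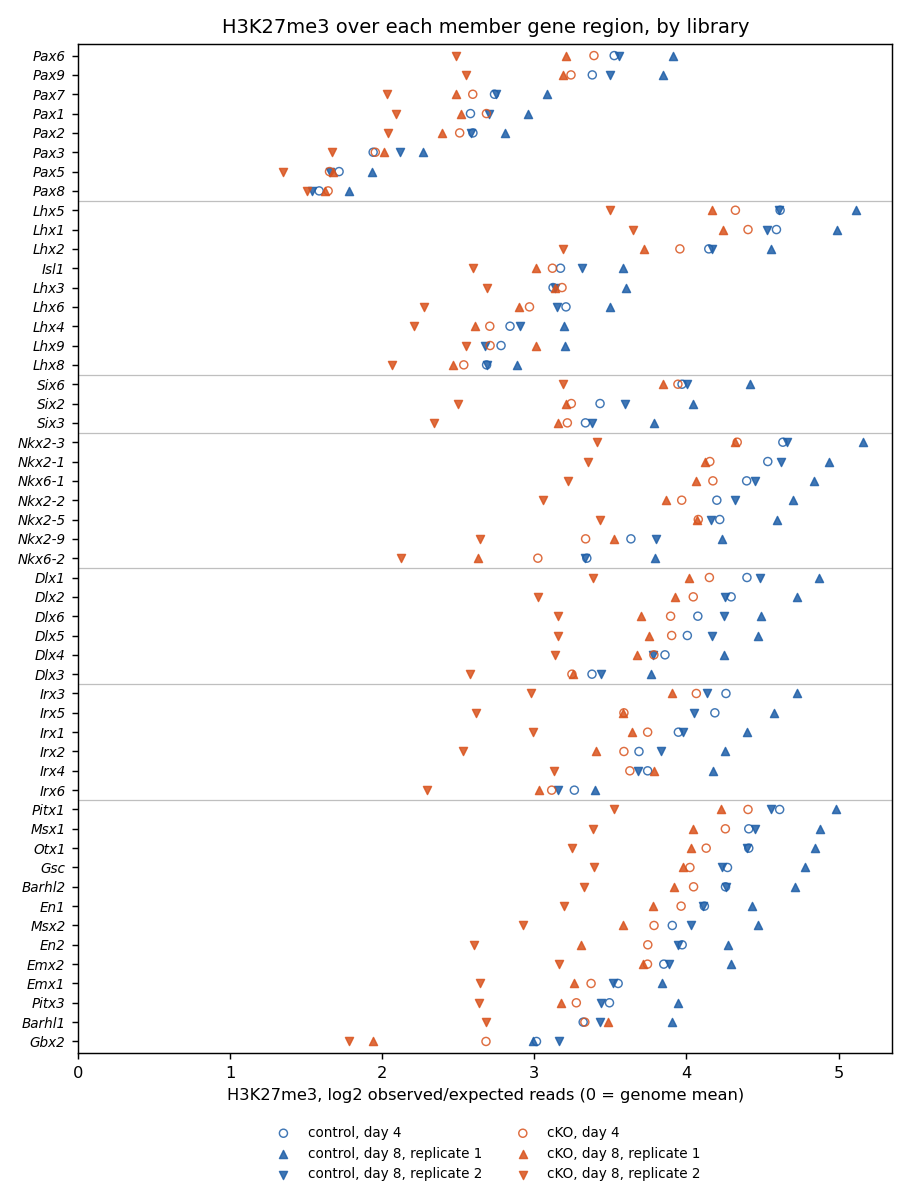
H3K27me3 over each of the 52 members (y axis, grouped by family and ordered by mean control level) as log2 observed/expected reads (x axis) in the 6 H3K27me3 libraries (blue control, orange cKO, open circles day 4, triangles day 8). At day 8 both cKO values lie left of both control values for 46 of the 52 members, and the cKO library of replicate 2 is the lowest of the 6 libraries for all 52 genes.

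At day 8 H3K27me3 was lower in *Dnmt1* cKO over all 52 members in both same-numbered library pairs, beside 12126 of 23007 gene regions. The median log2 difference was -0.71 in replicate 1 and -0.94 in replicate 2, a mean of -0.83 ± 0.17 (SD, n = 2 pairs) or 0.564 of the control level, while the medians over all gene regions tested were -0.11 and -0.18. For 46 of 52 members both cKO libraries were below both controls, whichever numbers are paired, beside 41.0% of all gene regions tested. The other 6 were *Lhx9*, *Pax8*, *Lhx3*, *Barhl1*, *Pax5* and *Irx4*. The cKO value was at least 2-fold lower in 2 members in replicate 1 and in 23 in replicate 2, against 2.94% and 5.81% of all gene regions. No member passed the test with 2 libraries against 2, and no gene region did (0.0% called, limma with Benjamini-Hochberg adjustment). At an unadjusted p-value under 0.05 were 3 of 52 members, all lower (*Gbx2*, *En2* and *Nkx6-2*), and 5147 of 23007 gene regions. limma-voom on the recovered reads also called 0 members, with 46 members and 5775 gene regions at an unadjusted p under 0.05, and limma without a variance trend called 0, with 40 members and 5227 gene regions.

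The size of the difference moved with the cKO library of replicate 2, which had the lowest H3K27me3 level. Without it the fitted median over the members was -0.52, and without the cKO library of replicate 1 it was -1.14. Set against both controls alone, the cKO library of replicate 1 was lower in 46 of 52 members and that of replicate 2 in 52 of 52, beside 48.1% and 59.7% of all gene regions. The share of all gene regions at 4-fold or more above the genome mean went from 7.82% in control to 6.38% in cKO in replicate 1 and from 5.94% to 3.41% in replicate 2. Whether the immunoprecipitations differed in efficiency was not tested.

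*Gbx2*, a gene of the midbrain-hindbrain boundary that ESCs can also express, had the largest difference. Its log2 level was 3.01 at day 4 and 2.99 and 3.16 at day 8 in control, and 2.68 at day 4 and 1.94 and 1.78 at day 8 in cKO, so that its day 8 groups did not overlap. The difference was -1.22 ± 0.23 (SD, n = 2 pairs), or 0.430 of the control level, with an adjusted p of 0.12 (limma, Benjamini-Hochberg). Within the families, the largest differences were those of *Irx5* (-1.21 ± 0.31), *Nkx6-2*, an oligodendrocyte and motor neuron factor (-1.19 ± 0.03), *Lhx5* (-1.03 ± 0.12), *Dlx2*, a partner of *Dlx1* in the forebrain (-1.01 ± 0.30), *Six2*, which maintains kidney progenitors (-0.97 ± 0.19), and *Pax6* (-0.89 ± 0.26), all as mean log2 difference with SD over 2 pairs. Smallest were those of *Pax8* (-0.10 ± 0.09), *Lhx9*, a gonad and limb factor (-0.16 ± 0.05), *Irx4*, a heart ventricle factor (-0.47 ± 0.11), *Barhl1*, a hair cell and cerebellar factor (-0.58 ± 0.23), *Dlx4* (-0.61 ± 0.05), *Nkx2-5*, a heart factor (-0.63 ± 0.14), and *Six6* (-0.70 ± 0.17). The adjusted p-values of all these were above the threshold (limma). For *Lhx9* and *Pax8* the sign changed when the control library of replicate 1 was left out, with fitted differences of 0.10 and 0.03. For *Lhx9* it also changed without the cKO library of replicate 2, where the difference was 0.07.

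The order of the members was similar in the 2 pairs. Across the 52 members the differences of replicate 1 and replicate 2, which come from different libraries, had a Pearson r of 0.90 and a Spearman rho of 0.89, and this is a description over genes, which are not replicates. Members with more H3K27me3 in the day 4 control, a library not used for the day 8 difference, had the larger differences (r = -0.71, rho = -0.64, n = 52 members). Families also lay closer together at the starts: over the tiles within 2 kb of the start, the median difference was -0.87 ± 0.19 in Pax, -0.92 ± 0.18 in Lhx and Isl, -0.88 ± 0.33 in the sine oculis-related genes, -1.005 ± 0.33 in Nkx, -0.94 ± 0.27 in Dlx and -0.93 ± 0.19 in Irx (log2, SD, n = 2 pairs), all within 1 SD of each other. *Pax8* stayed small there, at -0.32 and -0.27 in the 2 pairs, and *Pax5*, the B cell factor with the longest region (184 kb), differed by -0.78 and -1.16 at its start against a mean of -0.28 over the whole gene.

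**Figure D3:**
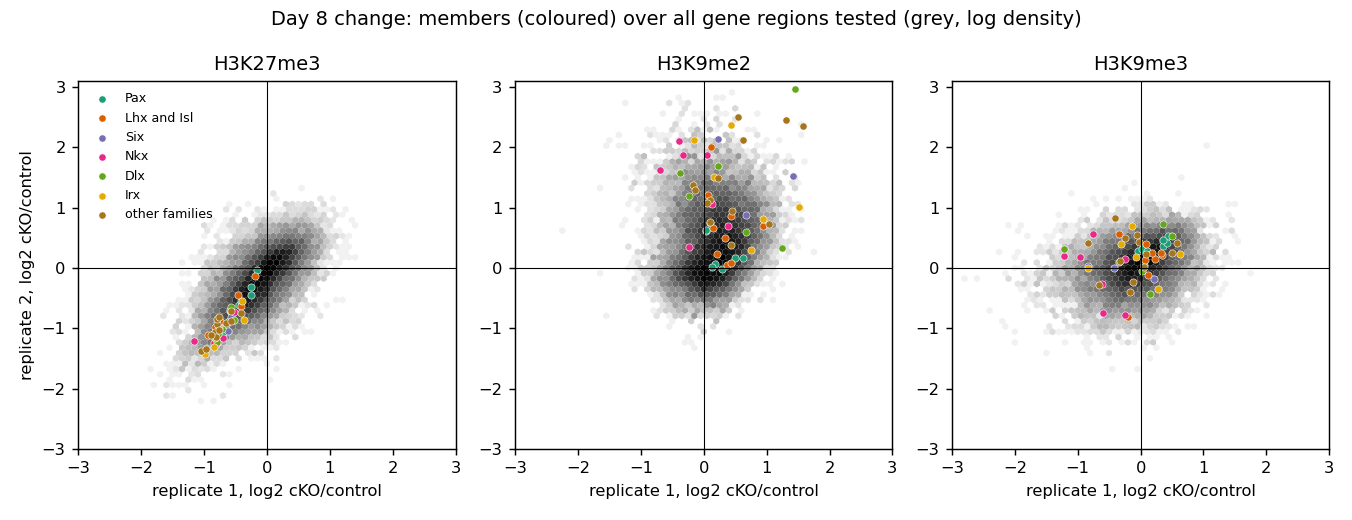
Day 8 log2 cKO/control in replicate 1 (x axis) and replicate 2 (y axis) for each mark, with members coloured by family over the density of all 23007 gene regions tested in grey. For H3K27me3 all 52 members lie in the lower left corner along the diagonal, and for H3K9me3 they spread around 0. For H3K9me2 51 of 52 lie above 0 in replicate 2 without a relation to replicate 1. Only 25.3% of all gene regions lie below 0 in that replicate 2 pair.

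The height of the H3K27me3 peak differed in both pairs, while the width of the marked stretch differed by a median of 0 kb in replicate 1 and -2 kb in replicate 2. In the tile 2 kb after the start, where the mark was highest, the median over the members was 28.7-fold the genome mean in control and 16.4-fold in cKO in replicate 1, and 21.3-fold and 10.5-fold in replicate 2. At 30 kb upstream the same medians were 1.25 and 1.38 in replicate 1 and 1.28 and 1.29 in replicate 2. At 10 kb upstream cKO was the higher, with 2.14 and 2.5 in replicate 1 and 2.15 and 2.43 in replicate 2. It was also higher 30 kb after the start, with 1.37 and 1.71, and 1.55 and 1.8. At other outer distances the order of the groups varied. The unbroken run of tiles at 4-fold or more around the start had a median width of 22, 22 and 20 kb in the 3 controls, 22 kb in cKO at day 4 and 21 and 18 kb in cKO at day 8. In replicate 1 the run was narrower in cKO for 15 members, wider for 18 and equal for 19, and in replicate 2 it was narrower for 27, wider for 7 and equal for 18. No member lost its 4-fold run in any library. Runs of neighbours such as *Dlx1* and *Dlx2*, or *Dlx5* and *Dlx6*, were the same run counted for both genes. The widest in control were 36 kb. This was reached in all 3 libraries by *Pax3*, a neural crest and muscle progenitor factor, and in 2 of them by *Pax6* and *Pax2*. In the day 8 control of replicate 2 the run of *Dlx5* and *Dlx6* also reached 36 kb.

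**Figure D4:**
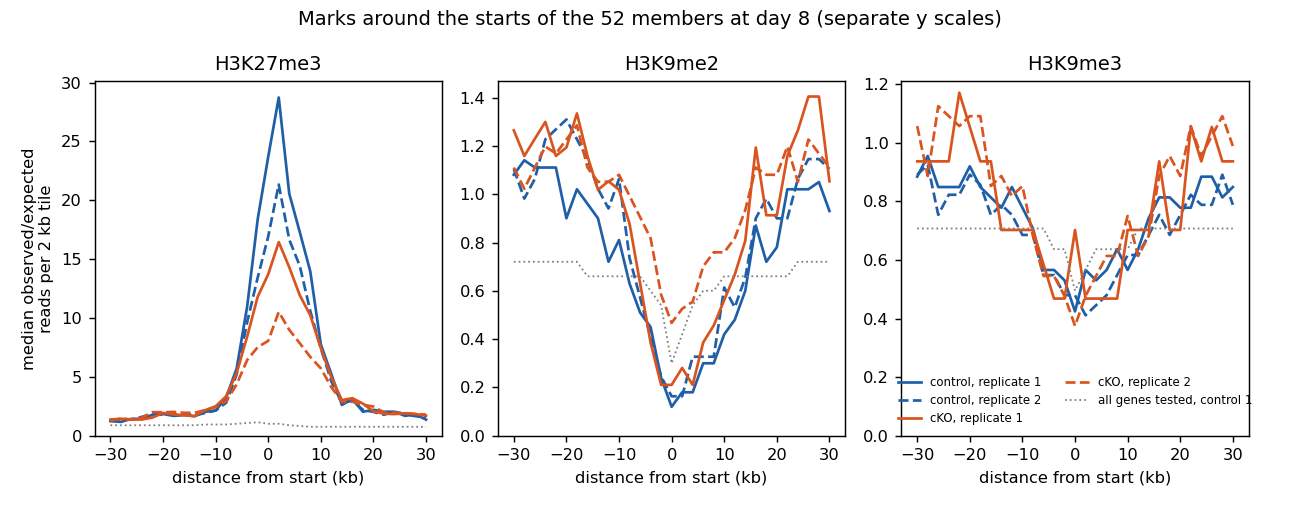
Median observed/expected reads over the 52 members in 2 kb tiles (y axis, separate scales, 1 is the genome mean) by distance from the annotated start in the direction of the gene (x axis, kb) for the 4 day 8 libraries of each mark, with all genes tested in control dotted. The H3K27me3 peak 2 kb after the start is 28.7 and 21.3 in control and 16.4 and 10.5 in cKO, and the H3K9me2 trough at the start is 0.120 and 0.164 in control and 0.211 and 0.468 in cKO.

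Within the members the tiles with most H3K27me3 differed most. Tiles were sorted by the day 4 control library, so that the sorting did not use the day 8 values. The 156 tiles at 16-fold or more, 25.7% of the member tiles, held a mean of 81.0 CpG sites and their summed reads differed by -0.82 and -1.10 (log2 cKO/control) in the 2 pairs. The 171 tiles from 4-fold to 16-fold, with 49.2 CpG, differed by -0.54 and -0.76. The 261 tiles from 1-fold to 4-fold, with 22.9 CpG, differed by 0.12 and 0.04, and the 19 tiles below the genome mean by 0.24 and 0.15. The sign thus differed between the richest and the poorest tiles in both pairs, but these come largely from different genes: 43 members had tiles at 16-fold or more, 23 had tiles from 1-fold to 4-fold and 5 had tiles below the genome mean, and Pax genes held 214 of the 261 and 17 of the 19 in the last classes. Since values are relative to each library's total, a lower share in rich tiles goes with a higher share elsewhere.

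CpG density was high over the members, with a median of 30.6 CpG per kb of region (range 9.14 to 59.2) against 12.2 over all gene regions tested. Members with denser CpG had more H3K27me3 in control (r = 0.70, rho = 0.70, n = 52 members), less H3K9me2 (r = -0.81, rho = -0.81) and less H3K9me3 (r = -0.65, rho = -0.64). They also had the larger day 8 difference in H3K27me3 (r = -0.75, rho = -0.74). These are descriptions over genes of the same libraries, and base composition and region length moved together with CpG, so their parts cannot be told apart here. When the trend of each library with GC content over all gene regions was removed, the median day 8 difference was -0.64 in place of -0.83.

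**Figure D5:**
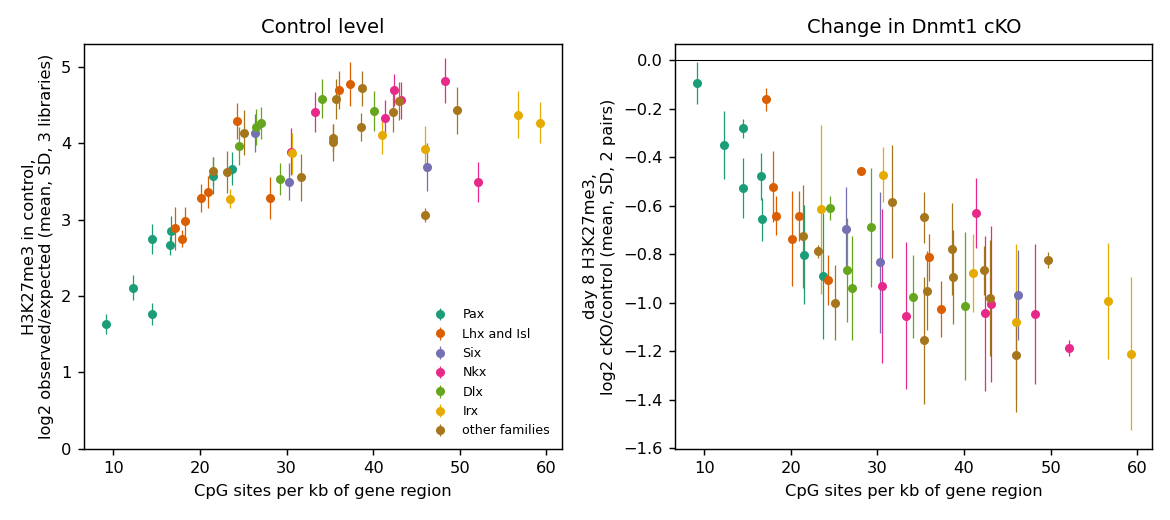
CpG sites per kb of gene region (x axis) for each of the 52 members, coloured by family, against the mean control H3K27me3 level (left, log2 observed/expected, bars SD over 3 libraries) and the mean day 8 difference (right, log2 cKO/control, bars SD over 2 pairs). Most Pax genes lie at the low end of level and difference, apart from *Pax6* (3.67 and -0.89) and *Pax9* (3.575 and -0.80), and the family has a median of 15.5 CpG per kb. The Pearson r is 0.70 on the left and -0.75 on the right.

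At day 4, with 1 library per group and no test, the difference in H3K27me3 was small. The median over the members was -0.15, against -0.07 over all gene regions tested, and 47 of 52 members were lower in cKO, beside 62.7% of all gene regions. The exact binomial 95% interval of the cKO/control ratio, which covers counting error only, lay below 1 for 37 members and above 1 for 1. It was computed for members only, so no share of all gene regions stands beside these counts. With a median of 1156 reads per member in cKO and 1557 in control, small differences can exclude 1. The deepest was *Irx5* at a ratio of 0.661 (0.601 to 0.725). The 1 above was *Pax1*, a sclerotome factor named here after its values were seen, at 1.08 (1.01 to 1.15). Across the 52 members the day 4 difference and the mean day 8 difference had an r of 0.76 and a rho of 0.78, from different libraries.

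Most other lists also had lower H3K27me3 medians in cKO at day 8. Over all gene regions tested, 41.0% had both cKO libraries below both controls, beside which the counts that follow stand. The 40 Hox gene regions (39 names) stood at 25.6-fold the genome mean in control with a difference of -0.86 ± 0.22 at day 8, with both cKO libraries below both controls in 38. The 68 regions of 65 other homeobox genes stood at 12.4-fold with a difference of -0.73 ± 0.14, and 54 were below. Lists without high H3K27me3 also had lower medians: ribosomal protein genes, active in all cells, stood at 0.454-fold with a difference of -0.49 ± 0.11 and 46 of 76 tested below, genes of Polycomb subunits and H3K27 demethylases had one of -0.53 ± 0.01 with 11 of 16 below, and pluripotency genes had one of -0.39 ± 0.03 with 6 of 9 tested below. The 8 fibroblast genes, which mark feeder cells, stood at 2.27-fold with a difference of 0.17 ± 0.07, with 0 below and 4 of 8 above both controls, beside 17.1% of all gene regions above. All are median log2 differences with SD over 2 pairs, no gene of these lists was called, and the lists were not tested against each other.

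H3K9me2 was nearly absent around the starts of the members in control. In the start tile the median over the members was 0.182-fold the genome mean at day 4 and 0.120-fold and 0.164-fold at day 8, and all gene regions tested had 0.363-fold, 0.300-fold and 0.327-fold there. Over whole regions the members ranged from -4.25 to 0.55 (log2). The long Pax genes were at the genome mean (median 0.03 ± 0.15, SD, n = 3 libraries), and the sine oculis-related genes were lowest at -3.02 ± 0.50. Read numbers were small, with a median of 18 to 23 reads per member region in the control libraries and 24 to 27 of 52 members under 20 reads.

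At day 8 the H3K9me2 values of the members were higher in cKO by different amounts in the 2 pairs. The median difference was 0.23 in replicate 1 and 0.98 in replicate 2 (log2), a mean of 0.60 ± 0.53 (SD, n = 2 pairs), against 0.17 and 0.35 over all gene regions tested, and it was 0.22 against 0.11 at day 4. The same day 8 mean was 0.70 ± 1.31 over Hox genes, 0.74 ± 0.92 over ribosomal protein genes and 0.68 ± 1.19 over pluripotency genes. It was 0.52 ± 0.47 over the other homeobox genes, 0.52 ± 0.74 over the Polycomb and demethylase genes and 0.19 ± 0.08 over the fibroblast genes. Both cKO libraries were above both controls in 29 of 52 members, beside 34.3% of all gene regions. limma called no member, beside 0.339% of all gene regions, with 3 of 52 members and 1919 of 23007 gene regions at an unadjusted p under 0.05. limma-voom called 0 members, with 5 members and 1469 gene regions at an unadjusted p under 0.05. The smallest p-values were those of *Irx6*, *Lhx3*, a pituitary and motor neuron factor, and *Dlx2*. *Irx6* went from -1.08 and -0.63 in control to -0.14 and 0.19 in cKO, a difference of 0.88 with an adjusted p of 0.38 (limma). *Lhx3* went from -0.90 and -0.75 to 0.04 and -0.06, with an adjusted p of 0.46 (limma). *Dlx2* rested on 4 and 4 reads in control and 10 and 49 in cKO, with an adjusted p of 0.60 (limma).

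The H3K9me2 difference was larger in 1 library. In the cKO library of replicate 2 the members had a median of -0.59, against -1.84 to -1.50 in the other 5 H3K9me2 libraries and -0.07 in the input, and 26 members were at least 2-fold above their control against 7 in replicate 1 (17.0% and 2.12% of all gene regions). Over all gene regions tested its values had an r of 0.69 with the input, against 0.35 to 0.43 for the other 5 libraries. Without this library the fitted median difference was 0.21 in place of 0.62, and its cKO partner alone was above both controls in 31 of 52 members against 50 of 52 for this library (43.5% and 69.8% of all gene regions). In that pair the difference followed CpG density (r = 0.72, rho = 0.74, n = 52 members), and in the pair of replicate 1 it did not (r = 0.01, rho = -0.04). The 2 pairs were also unrelated to each other across the members (r = 0.06, rho = -0.09). With the GC trend removed the median day 8 difference was 0.10 ± 0.28 (SD, n = 2 pairs), and that of day 4 was -0.03. The part of the likeness to input in the H3K9me2 difference was not tested.

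H3K9me3 was below the genome mean over 51 of the 52 members in control, and its day 8 differences were small. Control levels were highest in Pax (-0.18 ± 0.05, log2 median, SD, n = 3 libraries) and lowest in the sine oculis-related genes (-1.58 ± 0.15). The median day 8 difference over the members was -0.03 in replicate 1 and 0.22 in replicate 2, against -0.02 and 0.09 over all gene regions tested, and 0.08 at day 4. Both cKO libraries were above both controls in 12 of 52 members, beside 28.5% of all gene regions, and below both in 8, beside 19.5%. limma called no member and no gene region (0.0%), with 8 of 52 members and 3521 of 23007 gene regions at an unadjusted p under 0.05, and limma-voom called 5 of 52 members (*Pax2*, *Pax3*, *Pax5* and *Pax7* higher and *Lhx9* lower), beside 8.35% of all gene regions, a like share. The shallow cKO library of replicate 1 gave a median of 12 reads per member region, with 35 of 52 members under 20 reads.

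Most of the 8 Pax genes had higher H3K9me3 in cKO at day 8. Both day 8 cKO libraries were above both controls in 6 of 8, beside 28.5% of all gene regions tested. The median difference was 0.23 and 0.34 in the 2 pairs, against -0.02 and 0.09 over all gene regions, and 0.07 at day 4. *Pax3* went from -0.17 and -0.19 in control to 0.26 and 0.34 in cKO at day 8, and was -0.05 in control and 0.04 in cKO at day 4. Its day 8 difference was 0.48 with an SE of 0.12 and an adjusted p of 0.23 (limma). *Pax7*, a muscle stem cell factor, differed by 0.41 and *Pax2*, a kidney and optic nerve factor, by 0.41, each with both cKO values above both controls and adjusted p-values of 0.24 and 0.25 (limma). Read numbers of these long genes were 208 to 276 in the shallow cKO library and 522 to 947 in the other day 8 libraries. The family was singled out after its values were seen. Outside Pax, *Dlx5*, *Dlx1* and *Emx1* differed by 0.54, 0.52 and 0.49, as much as *Pax3*. They rested on 14, 19 and 34 reads in the shallow cKO library, against 255 for *Pax3*. The day 8 cKO and control values of *Dlx1* overlapped. The mean of the median differences over the 2 pairs was 0.28 in Pax. In the other families it ran from -0.24 in Nkx to 0.16 in Lhx and Isl.

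The marks were also compared with each other in their day 8 change. limma with an interaction of mark and genotype called 0 members for H3K27me3 against H3K9me2 and 0 for H3K27me3 against H3K9me3, and 0 of all gene regions in each (0.0%), with 3688 and 3709 gene regions at an unadjusted p under 0.05. The median differences of change over the members were -1.47 and -0.86 on the log2 scale, against -0.47 and -0.19 over all gene regions, with 38 and 26 of 52 members at an unadjusted p under 0.05. limma-voom called 0 members in both, with 18 and 10 members and 4430 and 3985 gene regions at an unadjusted p under 0.05. Without the H3K9me2 cKO library of replicate 1, which leaves the replicate 2 library that stood apart, 35 of 52 members were called lower in the first comparison, beside 28.9% of all gene regions, and 0 were without that replicate 2 library. Each of these leaves 1 H3K9me2 cKO library, which is assumed to vary like the other groups.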

How the data were processed

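ChIP-seq of H3K27me3, H3K9me2 and H3K9me3 was measured in 18 libraries with 1 input. The values deposited by the authors are log2 observed/expected reads per 2 kb tile over 1327469 tiles of 22 chromosomes (NCBIM37), whereas the methods speak of 1 kb tiles. Per the methods, reads were trimmed with Trim Galore and aligned with Bowtie2 (2.2.9 in the submitters' processing notes), and low mapping qualities were discarded. Removal of duplicates is not given in the sources used here, and input was not subtracted. Day 8 libraries carry replicate numbers in the labels, although the methods mention one measurement only.

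Whole reads were recovered from the log2 values and summed over the tiles of each gene region (GENCODE vM1), with 0.5 reads added before taking log2 observed/expected. A linear model with a variance trend (eBayes) from limma 3.58.1, run under R 4.3.3 (two-sided, Benjamini-Hochberg, threshold 0.05) was fitted on all 23007 gene regions with a mean of at least 10 reads. Exact permutation of 2 libraries against 2 cannot give a p below 0.333. Named genes were, per family, those with the highest and lowest control H3K27me3 level and the largest and smallest day 8 difference, plus those with the smallest p-values for H3K9me2 and H3K9me3. The members and lists were chosen with earlier results of these data known. Intervals cover counting error only. Alternatives were another read addition, no filter, tile means, centring, GC correction, start regions, genes without upstream tiles, no trend, limma-voom, a replicate block, the day 4 pair added and each library left out.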

Additional observations from a re-analysis of the deposited data

Results flagged for a closer look

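*Barhl1* and *Pax8* had H3K27me3 differences of opposite sign at day 4 and day 8. The day 4 log2 difference (cKO minus control) of *Barhl1* was 0.011, with an exact binomial 95% interval of the ratio from 0.926 to 1.09, and its mean day 8 difference was -0.58 ± 0.23 (SD, n = 2 pairs). That of *Pax8* was 0.059, with an interval from 0.967 to 1.12, and its mean day 8 difference was -0.10 ± 0.09 (SD, n = 2 pairs). Both day 4 intervals include 1, and the difference between the days was not tested.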

How the results depend on the processing

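All 52 members were called higher in H3K27me3 than in either H3K9 mark under every alternative run. No member was called for H3K27me3 at day 8 except 1 (*Gbx2*) over start regions, where 3106 gene regions (13.6%) were called, and 48 with a replicate block, where 5104 (22.2%) were called. Of all gene regions 27 were called after centring, 712 without the cKO library of replicate 1, 496 without the control library of replicate 1 and 1194 without that of replicate 2. Replicate numbers are only shared names, and deviations of same-numbered libraries correlated at 0.382 for H3K27me3, 0.241 for H3K9me2 and 0.104 for H3K9me3 over gene regions. The block called 17 members and 1044 gene regions (4.54%) for H3K27me3 against H3K9me2, where leaving out 1 library gave 0 to 35 members and 0 to 6805 gene regions. limma-voom called 5 members for H3K9me3 and 1920 gene regions (8.35%). For H3K9me2 the 78 gene regions called became 0 to 219. Counts with 1 cKO library, chosen after seeing the data, gave 31 to 50 members above both controls for H3K9me2. GC correction moved the H3K27me3 median difference to -0.637 and shifted all gene regions from -0.15 to -0.05. GC-corrected levels are relative to the median of gene regions of like GC content, not to the genome mean. Median control levels were 3.488 (tile means), 3.337 (GC) and 4.301 (start regions) for H3K27me3, -2.556 (tile means), -1.868 (centred), -0.769 (GC) and -2.343 (start regions) for H3K9me2, and -1.371 (tile means) and -0.141 (GC) for H3K9me3. Of 420 alternative values for 28 named differences, 391 kept direction and side of the threshold, 23 passed it and 6 reversed: *Irx3* 0.477 with GC correction, *Lhx8* 0.041 and *Lhx9* 0.034 with tile means, and, leaving out 1 library, *Lhx9* (-0.425 to 0.101, of which 2 reversed) and *Pax8* (-0.219 to 0.027). The cause was not tested. In the H3K9me3 cKO library of replicate 1, the shallowest, 35 of 52 members had under 20 reads, and 24 to 27 did in the H3K9me2 controls, whose level over the members was low.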
